A study of Macaca mulatta with 52 samples.

Results

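Expanded blastocysts of the rhesus monkey (Macaca mulatta) were compared with 8-cell embryos by RNA sequencing of single embryos in libraries of the SoLo kit. The comparison rests on 10 libraries of the 52 samples in the series, 6 from expanded blastocysts and 4 from 8-cell embryos, chosen by stage and kit as the sample titles name them. All embryos came from oocytes matured in the body of hormone-stimulated females, fertilised in vitro and cultured in the defined medium HECM-9, to which calf serum was later added. Some cultures contained relaxin, a peptide hormone, and it is not labelled per embryo. Cumulus cells, the follicle cells around an oocyte, were taken off by pipetting. SoLo is a low-input library kit that removes ribosomal RNA sequences after a first amplification. The blastocysts carry the title codes 111215 (2 embryos, called 111215-a and 111215-b because their columns bear no number), 111715 (embryos 01, 02 and 04) and 112415 (embryo 03). The 8-cell embryos carry 020816 (embryos 06, 07 and 08) and 112815 (embryo 02). No code occurs at both stages, so stage and title code cannot be told apart. Another 3 morulas of the same kit share the fit and are given where they help to place a change, and embryos without a SoLo library that were sequenced with a second kit, SPIA, are set beside the result at the end.

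Between these stages the embryo passes from a small number of large, similar cells to a hollow ball with separate lineages. The trophectoderm is a sealed epithelium that pumps fluid into the cavity and later forms the placenta, while the inner cells give the epiblast and the primitive endoderm. In primates the embryonic genome is switched on around the 8-cell stage with a burst of homeobox and zinc finger genes, at the time when the stored transcripts of the oocyte are being cleared.

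Values are CPM, a gene's counts relative to its library's total on a common scale, after TMM scaling, a correction for differences in library composition. A gene was called when the quasi-likelihood test of edgeR gave a Benjamini-Hochberg adjusted p under 0.05 over all genes tested, and log2 fold changes are blastocyst over 8-cell, with the standard error (SE). For the 6 blastocysts the lowest, median and highest values are given. For the 8-cell embryos all 4 values are given in the order 020816_06, 020816_07, 020816_08 and 112815_02. The labels present each library as a separate embryo, and embryos with the same code may share parents or a day, which the labels do not state. The edgeR p-values and SE measure the spread between these libraries together with that of the 3 morulas in the shared fit.

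Total counts were 7.98 ± 1.39 M (mega, SD, n = 6) in blastocysts and 7.65 ± 0.591 M (SD, n = 4) in 8-cell embryos. At a common depth of 5.70 M counts, 15209 ± 349 identifiers were detected in blastocysts and 14468 ± 882 in 8-cell embryos, a difference that did not pass the two-sided exact permutation test (p = 0.1, adjusted over 2 measures 0.1). The 20 identifiers with the most counts summed over all SoLo libraries, morulas included, were taken as a set. Of these, 13 have no gene symbol. They took 31.8 ± 6.04% of the counts in blastocysts and 18.8 ± 4.92% in 8-cell embryos (exact permutation p = 0.00476, the smallest that 210 arrangements can give, adjusted p = 0.00952). The sum holds more blastocysts than 8-cell embryos, so the set may favour identifiers abundant in blastocysts. Choice and test used the same libraries, so this p-value is not independent evidence. Spearman correlations over the genes tested lay between 0.914 and 0.969 among blastocysts, between 0.796 and 0.879 among 8-cell embryos, and between 0.642 and 0.744 across the stages. They describe libraries of 1 kit.

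Markers of cells other than the embryo's own were measured in the same libraries. The 12 cumulus and granulosa cell markers with an identifier summed to between 7.03 and 17.3 CPM in the blastocysts, against 559, 2180, 12.8 and 1237 CPM in the 8-cell embryos. The other 3 8-cell embryos held far more of these transcripts than any blastocyst, while 020816_08 lay in the range of the blastocysts. VCAN, a proteoglycan of the expanding cumulus matrix, was the main part of the sum in those 3. It stood at 1.40, 3.51 and 5.81 CPM in blastocysts and at 471, 2088, 3.06 and 942 CPM in 8-cell embryos. Of 13 genes tested in a broader list of such markers, 8 fell, 1 rose and 4 were not called, with a median log2 fold change of -4.17, against -0.05 over all genes. With 020816_08 as the single 8-cell embryo, a fit that takes its spread from the other groups, 1 of 11 fell, the list's median was 3.25 and VCAN was at 0.32 (adjusted p = 0.865). Among the cumulus genes named here, AREG, an EGF-like ligand, had 3 counts in all blastocysts together and 2112 counts in the 8-cell embryos (ratio 0.00117, 95% counting interval 0.000241 to 0.00343). It stood at 29.1, 30.2, 0.226 and 204 CPM in 8-cell embryos and reached 0.256 CPM in blastocysts, so 020816_08 overlapped them. Without 112815_02 the ratio was 0.00334. INHA, the inhibin alpha chain, stood at 0, 0.867 and 2.19 CPM in blastocysts and at 13.3, 37.5, 0 and 37.3 CPM in 8-cell embryos (-4.45 ± 1.35, adjusted p = 0.0165). Against 020816_08 alone, which had no count, it was not called (adjusted p = 0.284). With limma voom VCAN and INHA were not called (adjusted p 0.172 and 0.117). SERPINE2, a protease inhibitor, fell by 2.56 on the log2 scale and was at 165 CPM in 020816_08 too. HSD17B1, an estrogen-forming enzyme also made by trophoblast, was the list's riser (53.1 ± 26.1 CPM in blastocysts, 2.93 ± 2.06 CPM in 8-cell embryos, adjusted p = 0.0422), and its adjusted p passed 0.05 whenever any library was left out (up to 0.0797).

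The 5 sperm markers with an identifier summed to at most 0.816 CPM in blastocysts, against 11.1, 2.56, 35.8 and 29.7 CPM in 8-cell embryos. The genes differed between embryos. PRM2, a protamine, and TNP1, a transition protein, both of sperm chromatin, averaged 0.0943 and 0.117 CPM in blastocysts against 9.55 and 5.42 CPM in 8-cell embryos. SPACA1, a sperm head protein, had no count in any blastocyst and was at least 56.6-fold lower there, taking 3 counts over the group as the floor, while ACRV1, another sperm head protein, had no count in any 8-cell embryo and was at least 12.1-fold higher in blastocysts. Of the 7 sperm genes tested, 3 fell, 1 rose and 3 were not called (median -1.62). Without 8-cell embryo 112815_02, 4 were tested and none was called (median -0.84), and without blastocyst 112415_03, 3 of 5 were called lower (median -5.11). Blood and immune markers summed to between 4.53 and 15.7 CPM in blastocysts and to between 13.1 and 43.8 CPM in 8-cell embryos, with PTPRC, the pan-leukocyte marker, at 0 in all but 8-cell embryo 112815_02. Of 5 such genes tested, ITGAM rose, MS4A1 fell and 3 were not called (median -1.27). ITGAM had 94 counts in blastocysts and 2 in 8-cell embryos (ratio 38.8, counting interval 10.4 to 325; 23.1 without blastocyst 111215-b), and MS4A1 averaged 0.131 and 3.12 CPM. The calls of TNP1, ACRV1 and MS4A1 were lost on leaving out any of several libraries, with adjusted p up to 0.058, 0.0647 and 0.0691, and that of ITGAM against 020816_08 alone (0.093). The part of these other cells in the results below was not tested, except where values without the 3 cumulus-rich embryos are given.

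Of 14196 genes tested, 5457 (38.4%) were called, 2643 (18.6%) higher and 2814 (19.8%) lower in blastocysts. These shares are the reference for the list counts above and below. Differences were often large: 1367 called genes were more than 4-fold higher and 1507 more than 4-fold lower, and 427 and 365 passed a 32-fold difference. In 4185 of the called genes, or 76.7%, the values of the stages did not overlap. Of all 14196 genes tested, called or not, 4712 did not overlap. Calls and lack of overlap come from the same values. Of the calls, 48.4% were higher. With library totals in place of TMM, all log2 fold changes moved down by a median of 0.362 and 33.5% of 5633 calls were higher, so the balance between rises and falls depends on the scaling. Without the 3 cumulus-rich 8-cell embryos 4199 genes were called, and 3056 of 5395 earlier calls that could be tested remained called in the same direction.

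**Figure D1:**
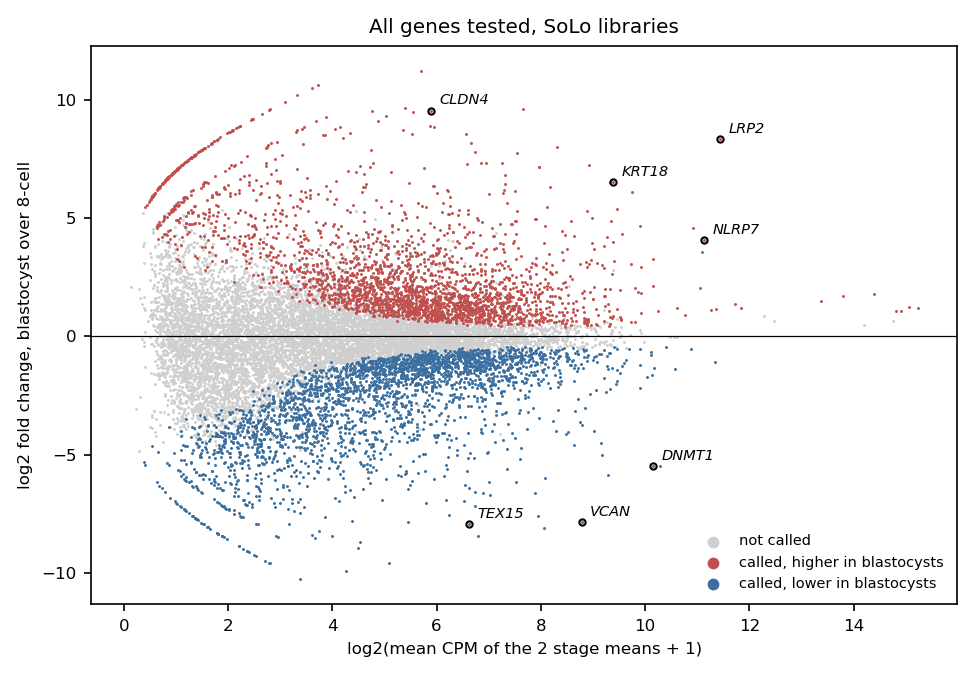
Log2 fold change of expanded blastocysts over 8-cell embryos (vertical axis) against mean level on a log2(CPM + 1) scale (horizontal axis) for the 14196 genes tested in SoLo libraries, with a point per gene. Called genes are red where higher in blastocysts (2643) and blue where lower (2814) and grey points were not called.

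The stage labels were checked first with 3 marker genes. ABCG2 (ENSMMUG00000008797), an ATP-driven efflux transporter of the placental trophoblast, stood at 6.47, 64.3 and 76.8 CPM in blastocysts and at 0.871, 0.0948, 0 and 0.401 CPM in 8-cell embryos. The stages did not overlap, although blastocysts 111215-b and 112415_03, at 6.47 and 17.7 CPM, lay well under the other 4 of that stage. Its log2 fold change was 7.15 ± 1.86 (SE, adjusted p = 0.0104). GATA2 (ENSMMUG00000021371), a transcription factor of trophoblast, stood at 264, 347 and 499 CPM in blastocysts and at 0.109, 0.284, 0.566 and 6.28 CPM in 8-cell embryos (7.74 ± 1.92, adjusted p = 0.00875). DNMT3L (ENSMMUG00000010648), an inactive relative of the DNA methyltransferases that helps them to lay down new methylation, stood at 203, 294 and 341 CPM in blastocysts and at 16.2, 16.1, 20.4 and 24.6 CPM in 8-cell embryos (3.89 ± 0.26, adjusted p = 5.56e-08). All 3 were higher in every blastocyst than in any 8-cell embryo. With 020816_08 as the single 8-cell embryo, ABCG2 and GATA2 kept their direction but not their call (adjusted p 0.179 and 0.157). GATA2 was then at 9.31, and ABCG2 had no count in that embryo.

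**Figure D2:**
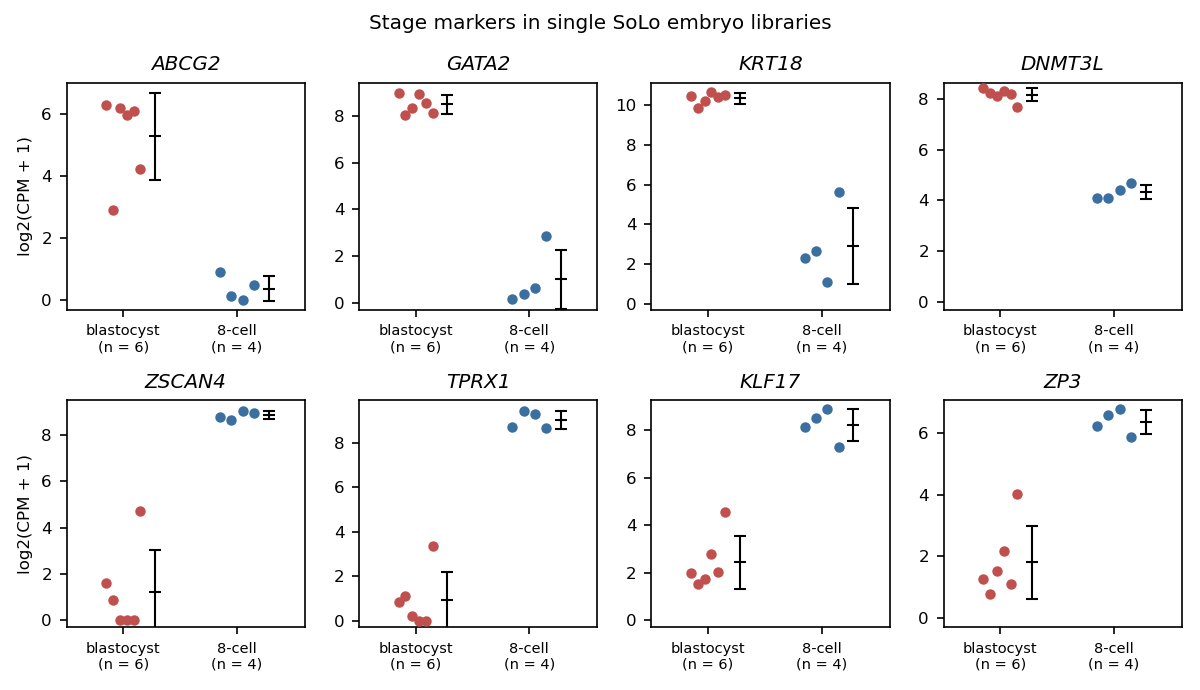
Level of 8 stage markers (vertical axes, log2(CPM + 1)) in 6 blastocyst (red, left) and 4 8-cell (blue, right) libraries, with a point per embryo and the mean ± SD as a black bar. ABCG2, GATA2, KRT18 and DNMT3L are higher in every blastocyst, and ZSCAN4, TPRX1, KLF17 and ZP3 are lower in every blastocyst than in any 8-cell embryo.

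Trophectoderm and trophoblast genes included large rises in blastocysts. Of 32 tested, 13 rose, 6 fell and 13 were not called, with a median log2 fold change of 2.59 (-0.05 over all genes). Over all genes tested, 18.6% rose and 19.8% fell, so the share of falls in this list was near that of all genes. KRT18 (ENSMMUG00000031911), a keratin of simple epithelia, stood at 931, 1381 and 1613 CPM in blastocysts and at 3.92, 5.31, 1.13 and 47.8 CPM in 8-cell embryos (6.51 ± 1.55, adjusted p = 0.00708). ELF3, an epithelial transcription factor, stood at 97.7, 119 and 145 CPM in blastocysts and at 4.25, 0.284, 0.226 and 0.935 CPM in 8-cell embryos (6.37 ± 1.02, adjusted p = 0.000513). KRT7, another trophoblast keratin, had 505 counts in blastocysts and 1 count in the 8-cell embryos, a ratio of 416 with a 95% counting interval of 74.4 to 16480. These keratins and ELF3 did not overlap between the stages. GATA3, which acts with GATA2 in trophectoderm, rose less, to 72.8 ± 20.0 CPM in blastocysts against 5.89 ± 1.81 CPM in 8-cell embryos (3.62 ± 0.69, adjusted p = 0.00101). TFAP2C, a factor of both pluripotent and trophoblast cells, was at 225 ± 26.9 CPM in blastocysts and 216 ± 22.7 CPM in 8-cell embryos (adjusted p = 0.792), with overlapping values. The trophoblast genes that fell included TP63, a factor of basal and progenitor epithelial cells (2.24 ± 1.58 CPM in blastocysts, 31.7 ± 15.2 CPM in 8-cell embryos), and SLC34A2, a phosphate transporter (110 ± 43.5 and 402 ± 130 CPM). CGA, the shared alpha chain of glycoprotein hormones, had no count in any blastocyst and stood at 9.04, 6.35, 8.15 and 0 CPM in 8-cell embryos, at least 89.8-fold lower in blastocysts over the group. CDX2 and KRT8 had no named identifier. With 020816_08 as the single 8-cell embryo, 4 trophoblast genes rose and 3 fell, and KRT18, KRT7 and GATA3 lost their call (adjusted p 0.068, 0.0764 and 0.144; KRT18 at 10.17).

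Genes of cell junctions and polarity, which seal the trophectoderm, rose in a large share. Of 32 tested, 23 rose, 1 fell and 8 were not called (median 2.44). CDH1 (ENSMMUG00000011850), E-cadherin, stood at 987, 1328 and 1422 CPM in blastocysts and at 58.4, 92.1, 65.8 and 103 CPM in 8-cell embryos (3.98 ± 0.40, adjusted p = 5.61e-06). CLDN4 (ENSMMUG00000044653), a tight junction claudin, stood at 75.5, 104 and 183 CPM in blastocysts and at 0.109, 0.0948, 0.113 and 0.267 CPM in 8-cell embryos (9.54 ± 2.02, adjusted p = 0.0036), a gene close to absent at the earlier stage. PKP3, a plakophilin of desmosomes, had 1170 counts in blastocysts and 2 counts in 8-cell embryos (ratio 482, counting interval 133 to 3987). Scaffolds of the tight junction rose too, CGN (cingulin) to 139 ± 33.2 CPM in blastocysts against 6.71 ± 1.93 CPM in 8-cell embryos (4.37 ± 0.32, adjusted p = 1.25e-07) and the polarity protein PATJ to 252 ± 51.2 against 19.4 ± 6.27 CPM (3.70 ± 0.27, adjusted p = 1.25e-07). ESRP1, a regulator of epithelial splicing, was the member that fell (236 ± 43.2 CPM in blastocysts, 386 ± 57.5 CPM in 8-cell embryos, -0.71 ± 0.20, adjusted p = 0.0121; -1.07 with library totals). With 020816_08 alone for the 8-cell stage 20 members rose and none fell, and CLDN4 and ESRP1 were no longer called (adjusted p 0.178 and 0.118).

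The Hippo pathway reads cell contact and polarity and sets apart outer and inner cells through the coactivator YAP1. Of 19 genes tested, 10 rose, 1 fell and 8 were not called (median 1.495). AMOTL2 (ENSMMUG00000021694), an angiomotin that binds YAP1 at junctions, stood at 179, 241 and 359 CPM in blastocysts and at 0.435, 7.77, 0.792 and 6.41 CPM in 8-cell embryos (6.02 ± 0.79, adjusted p = 0.000108), without overlap. FRMD6, an upstream activator, averaged 216 ± 71.8 CPM in blastocysts and 25.5 ± 13.9 CPM in 8-cell embryos (3.08 ± 0.52, adjusted p = 0.000458; 4.99 against 020816_08 alone). YAP1 itself averaged 190 ± 38.4 CPM in blastocysts and 82.3 ± 24.3 CPM in 8-cell embryos (1.20 ± 0.24, adjusted p = 0.000876). The kinase LATS1 fell, to 39.1 ± 11.8 CPM in blastocysts against 80.8 ± 16.9 CPM in 8-cell embryos (-1.05 ± 0.31, adjusted p = 0.0129). Against 020816_08 alone, YAP1 and LATS1 had adjusted p of 0.0788 and 0.0575.

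Ion and water transport genes, which serve the filling of the cavity, moved in both directions. Of 18 tested, 7 rose, 4 fell and 7 were not called (median 1.43), where 18.6% of all genes rose and 19.8% fell. ATP1B1, the beta chain of the sodium pump, stood at 183, 244 and 292 CPM in blastocysts and at 28.9, 33.0, 60.8 and 14.2 CPM in 8-cell embryos (2.82 ± 0.48, adjusted p = 0.000416). ATP12A, a proton and potassium pump, stood at 28.0, 444 and 789 CPM in blastocysts and at 0.544, 0, 0.226 and 1.34 CPM in 8-cell embryos (9.63 ± 1.96, adjusted p = 0.00291). Both were without overlap, and ATP12A was lowest in blastocyst 112415_03. ATP6V1B1, a proton pump subunit, averaged 189 ± 26.4 CPM in blastocysts and 1.28 ± 2.36 CPM in 8-cell embryos (7.28 ± 1.34, adjusted p = 0.00155). SLC4A2, an anion exchanger, averaged 115 ± 34.2 and 10.6 ± 7.57 CPM (3.43 ± 0.49, adjusted p = 8.14e-05). The water and glycerol channel AQP3 fell, with 9.96, 18.7 and 65.1 CPM in blastocysts and 238, 227, 317 and 321 CPM in 8-cell embryos (-3.27 ± 0.55, adjusted p = 0.000529). SLC12A2, a sodium, potassium and chloride cotransporter, averaged 8.29 ± 8.95 CPM in blastocysts and 56.5 ± 27.5 CPM in 8-cell embryos (-2.76 ± 0.60, adjusted p = 0.00185). SCNN1G, a sodium channel subunit, stood at 0, 0.230 and 1.41 CPM in blastocysts and at 18.7, 18.4, 22.5 and 0.401 CPM in 8-cell embryos, so that 112815_02 overlapped the blastocysts. Against 020816_08 alone, ATP1B1 and ATP12A lost their call (adjusted p 0.0829 and 0.139), and the log2 fold change of SLC4A2 was 5.46. ATP6V1B1 had no count in that embryo and remained called (adjusted p = 0.00934).

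Primitive endoderm genes rose in 13, fell in 2 and were not called in 9 of 24 tested members (median 2.62). LRP2 (ENSMMUG00000017143), the endocytic receptor megalin, stood at 3159, 5535 and 7259 CPM in blastocysts and at 4.68, 5.50, 4.75 and 53.6 CPM in 8-cell embryos (8.35 ± 1.77, adjusted p = 0.00367). The laminin chains LAMC1 and LAMB1, parts of the basement membrane, averaged 971 ± 115 and 945 ± 117 CPM in blastocysts, against 30.6 ± 14.3 and 61.3 ± 47.4 CPM in 8-cell embryos (4.99 ± 0.46 and 3.95 ± 0.61, adjusted p = 2.84e-06 and 0.000408). The early endoderm markers changed less. GATA6 stood at 165, 261 and 395 CPM in blastocysts and at 82.2, 86.5, 78.3 and 191 CPM in 8-cell embryos (1.29 ± 0.29, adjusted p = 0.00229), and the receptor gene PDGFRA at 164, 300 and 379 CPM against 119, 122, 119 and 178 CPM (1.09 ± 0.29, adjusted p = 0.00731). Both overlapped between the stages through 8-cell embryo 112815_02. GATA4 was not called (0.128, 11.1 and 45.7 CPM in blastocysts, 4.46, 8.53, 0.113 and 15.5 CPM in 8-cell embryos, adjusted p = 0.549), and SOX17 had no named identifier.

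Both members of the endoderm list that fell also act elsewhere. OTX2 (ENSMMUG00000038006), a homeobox factor, stood at 21.3, 27.8 and 178 CPM in blastocysts and at 1894, 3576, 3287 and 946 CPM in 8-cell embryos (-5.46 ± 0.83, adjusted p = 0.000489). FRZB, a secreted WNT antagonist, averaged 2.84 ± 2.89 CPM in blastocysts and 38.1 ± 13.8 CPM in 8-cell embryos (-3.73 ± 0.69, adjusted p = 0.00054). In both genes the highest blastocyst was 112415_03. Against 020816_08 alone, 5 endoderm genes rose and 1 fell. LRP2, PDGFRA and FRZB were then without a call (adjusted p 0.0978, 0.112 and 0.0507), at log2 fold changes of 10.18, 1.28 and -3.01.

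Pluripotency and epiblast genes rose in 8, fell in 1 and were not called in 4 of 13 tested members (median 3.28). POU5F1, the core pluripotency factor also known as OCT4, stood at 114, 197 and 288 CPM in blastocysts and at 64.6, 20.7, 73.6 and 112 CPM in 8-cell embryos (1.56 ± 0.39, adjusted p = 0.00613), with the stages just apart. ESRRB, a nuclear receptor of naive pluripotency in the mouse, averaged 150 ± 22.6 CPM in blastocysts and 7.00 ± 5.15 CPM in 8-cell embryos (4.41 ± 0.52, adjusted p = 1.56e-05; 7.35 against 020816_08 alone). SUSD2, a surface marker of naive human pluripotent cells, averaged 58.3 ± 6.14 and 6.01 ± 5.08 CPM (3.28 ± 0.59, adjusted p = 0.000427). NANOG, the factor of the epiblast, stood at 27.4, 61.9 and 95.2 CPM in blastocysts and at 5.66, 1.23, 0.113 and 27.1 CPM in 8-cell embryos. Its values did not overlap, yet it missed the threshold (2.85 ± 1.06, adjusted p = 0.0514), and without 8-cell embryo 112815_02 it was called at 4.70 (adjusted p = 0.00354), as it was with limma voom (4.58) and against 020816_08 alone (adjusted p = 0.00502). ETV5, an ETS factor downstream of FGF signalling, fell with overlap, averaging 6.61 ± 3.08 CPM in blastocysts and 26.2 ± 11.2 CPM in 8-cell embryos (-1.99 ± 0.60, adjusted p = 0.0162). POU5F1 against 020816_08 alone had an adjusted p of 0.0527, and SOX2 had no named identifier. In whole embryos, fewer cells of a type and less RNA per cell cannot be told apart.

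Oocyte and maternal-effect genes fell in 25, rose in 3 and were not called in 7 of 35 tested members (median -3.65). ZP3, a glycoprotein of the zona pellucida, stood at 0.703, 1.64 and 15.4 CPM in blastocysts and at 74.4, 97.0, 109 and 58.8 CPM in 8-cell embryos (-4.39 ± 0.72, adjusted p = 0.000278). NLRP5 and PADI6, components of the subcortical maternal complex beneath the oocyte surface, averaged 3.40 ± 4.83 and 1.91 ± 1.44 CPM in blastocysts, against 65.7 ± 18.8 and 49.9 ± 12.9 CPM in 8-cell embryos (-4.25 ± 0.68 and -4.69 ± 0.64, adjusted p = 0.000161 and 3.7e-05). The related genes NLRP9 and NLRP13 and the translational repressor PATL2 were at -3.98, -5.01 and -5.02 on the log2 scale (adjusted p 1.23e-06, 4.14e-06 and 2.74e-05). None of these 6 overlapped between the stages.

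The 3 members that rose are maternal-effect genes by name. NLRP7 (ENSMMUG00000005266), mutated in women with recurrent molar pregnancy, stood at 3618, 4166 and 5019 CPM in blastocysts and at 107, 138, 115 and 653 CPM in 8-cell embryos (4.07 ± 0.59, adjusted p = 0.000271). NLRP2 (ENSMMUG00000003115), its close relative, stood at 3499, 3943 and 4691 CPM in blastocysts and at 333, 312, 295 and 398 CPM in 8-cell embryos (3.58 ± 0.26, adjusted p = 1.25e-07). Neither overlapped between the stages, and near-identical NLRP genes may share counts, so the split between them is uncertain. KHDC3L, another gene of the maternal complex, averaged 159 ± 37.5 CPM in blastocysts and 71.9 ± 15.2 CPM in 8-cell embryos (1.14 ± 0.34, adjusted p = 0.0137). It was not called with library totals (adjusted p = 0.0569) or against 020816_08 alone (0.286).

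Of 9 genome activation genes tested, 8 fell, none rose and 1 was not called, with the lowest median of any list (-5.62). ZSCAN4 (ENSMMUG00000005335), a zinc finger gene of the activation burst, stood at 0, 0.422 and 25.5 CPM in blastocysts and at 439, 402, 517 and 496 CPM in 8-cell embryos (-6.60 ± 1.51, adjusted p = 0.00565). TPRX1 (ENSMMUG00000048019), a homeobox gene of the same burst, stood at 0, 0.479 and 9.34 CPM in blastocysts and at 421, 686, 620 and 397 CPM in 8-cell embryos (-8.09 ± 1.17, adjusted p = 0.000335). KLF17 averaged 6.39 ± 7.90 CPM in blastocysts and 318 ± 132 CPM in 8-cell embryos (-5.62 ± 0.86, adjusted p = 0.000443), and ZNF280A 38.4 ± 37.6 and 676 ± 126 CPM (-4.14 ± 0.56, adjusted p = 0.000129). LEUTX, a homeobox activator, missed the threshold (-3.93 ± 1.65, adjusted p = 0.0817). It stood at 0, 0.171 and 35.6 CPM in blastocysts and at 69.7, 130, 154 and 17.6 CPM in 8-cell embryos. Blastocyst 112415_03 was the highest of its stage for all 5 of these genes, and without it LEUTX was called at -9.51 (adjusted p = 4.2e-06) and all 9 members of the list were called lower. Under limma voom LEUTX was also called (-7.60), ZSCAN4 being at -9.93. Against 020816_08 alone, 6 of 10 fell and ZSCAN4 was at an adjusted p of 0.0542.

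**Figure D3:**
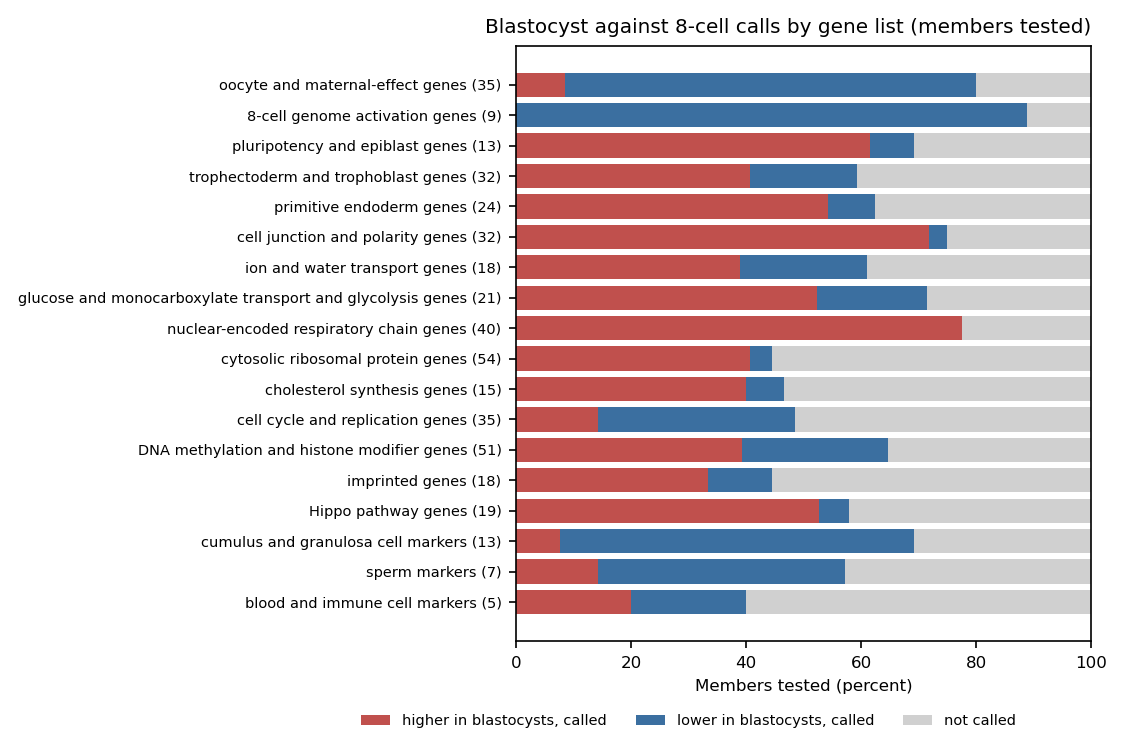
Share of the tested members of 18 gene lists (horizontal axis, percent; number tested in brackets) that were called higher (red) or lower (blue) in blastocysts than in 8-cell embryos, or not called (grey). Respiratory chain genes (31 of 40 higher) and junction genes (23 of 32 higher) have the longest red bars, and genome activation genes (8 of 9 lower) the longest blue bar. Over all genes tested, 18.6% were called higher and 19.8% lower.

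DNA methylation and histone modifier genes split, with 20 rises, 13 falls and 18 not called among 51 tested (median 0.51). The maintenance enzyme DNMT1 (ENSMMUG00000014604), which copies methylation after replication, stood at 21.8, 45.4 and 105 CPM in blastocysts and at 1392, 3703, 2803 and 982 CPM in 8-cell embryos (-5.48 ± 0.56, adjusted p = 2.04e-05). UHRF1 (ENSMMUG00000012705), which brings it to newly made DNA, stood at 29.0, 41.9 and 55.7 CPM in blastocysts and at 255, 619, 440 and 240 CPM in 8-cell embryos (-3.20 ± 0.28, adjusted p = 6.46e-07). The enzyme of new methylation DNMT3B (ENSMMUG00000019474) went the other way, at 1094, 1257 and 1543 CPM in blastocysts and 1.41, 14.8, 15.7 and 22.9 CPM in 8-cell embryos (6.53 ± 1.02, adjusted p = 0.000566). So did its partner DNMT3L, given above. None of these 4 genes overlapped between the stages.

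TET1, which oxidises methylated cytosine, averaged 765 ± 139 CPM in blastocysts and 92.1 ± 52.9 CPM in 8-cell embryos (3.05 ± 0.32, adjusted p = 3.19e-06). ZFP57 (ENSMMUG00000045668), a zinc finger protein that protects methylation at imprinted genes, had 1315 counts in blastocysts and 2 counts in 8-cell embryos (ratio 542, counting interval 150 to 4480). KDM5B, a histone H3 lysine demethylase, fell to 583 ± 84.6 CPM in blastocysts against 1338 ± 225 CPM in 8-cell embryos (-1.20 ± 0.16, adjusted p = 2.6e-05). Morulas of the same fit were set beside these changes. Relative to 8-cell embryos, morulas had TET1 at 3.02 (adjusted p = 2.78e-05), DNMT3L at 2.61 (1.1e-05), UHRF1 at -2.81 (7.22e-05), DNMT1 at -3.71 (0.00384) and DNMT3B at 5.27 (0.00491) on the log2 scale. Relative to morulas, blastocysts had DNMT3L at 1.28 (adjusted p = 0.0228), while DNMT1 (-1.77, 0.132), DNMT3B (1.25, 0.515), UHRF1, TET1 and ZFP57 were not called. Single morulas differed. In 021016_02, 021016_03 and 022916_01, DNMT3B stood at 228, 61.6 and 1296 CPM and DNMT1 at 128, 298 and 82.9 CPM. A missing call in so few morulas therefore does not show that a change was complete by that stage. With library totals the whole list had 11 rises and 16 falls.

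**Figure D4:**
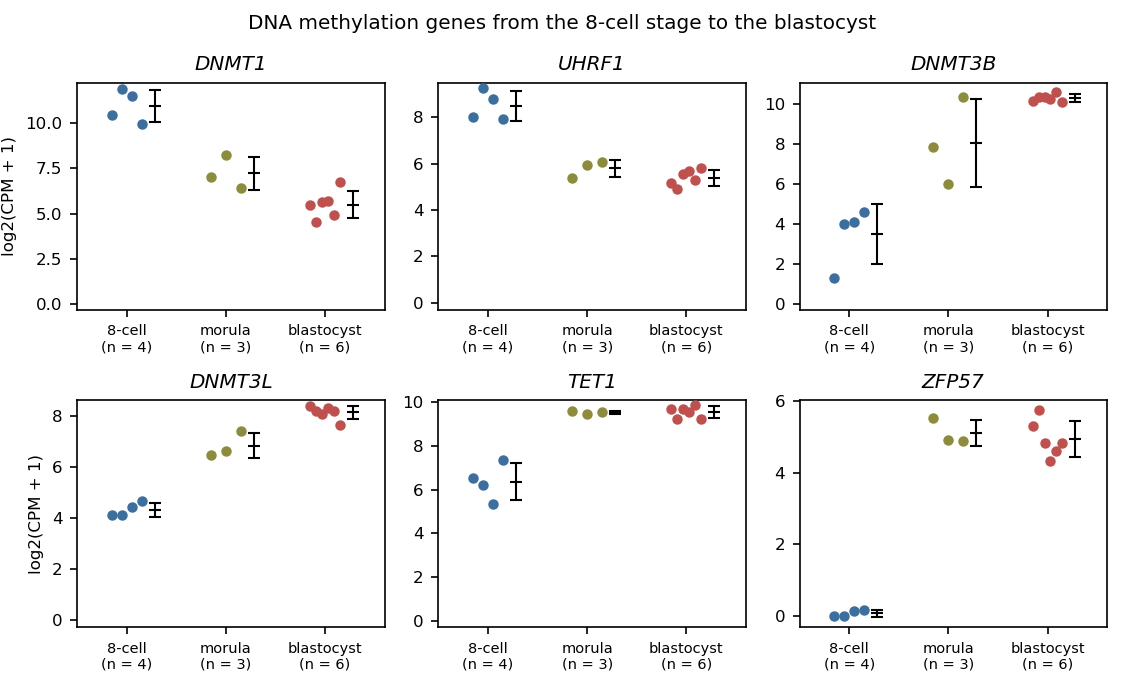
Level of 6 DNA methylation genes (vertical axes, log2(CPM + 1)) in 4 8-cell embryos (blue), 3 morulas (olive) and 6 blastocysts (red), with a point per embryo and the mean ± SD as a black bar. DNMT1 and UHRF1 are highest at the 8-cell stage, and DNMT3B, DNMT3L, TET1 and ZFP57 are lowest there.

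Imprinted genes, expressed from 1 parental copy in many tissues, moved in both directions: 6 rose, 2 fell and 10 were not called among 18 tested (median -0.20). Over all genes tested, 38.4% were called, 18.6% higher and 19.8% lower. The called share of this list was thus not far from that of all genes. The median turned positive without 8-cell embryo 112815_02 (0.34, 6 higher and 1 lower), with limma voom (0.52, 6 higher and 5 lower) and against 020816_08 alone (1.79, 6 higher and none lower). IGF2R, a receptor that clears the growth factor IGF2, averaged 621 ± 51.1 CPM in blastocysts and 52.5 ± 11.1 CPM in 8-cell embryos (3.56 ± 0.36, adjusted p = 3.17e-06). GRB10, a growth-restraining adaptor, averaged 259 ± 22.5 and 81.3 ± 31.6 CPM, and MEST, a hydrolase-like gene, 68.2 ± 10.99 and 18.7 ± 7.35 CPM (adjusted p = 6.66e-05 and 0.000543). The zinc finger gene PLAGL1 fell, with 0, 0.128 and 0.985 CPM in blastocysts and 15.5, 28.4, 7.70 and 31.1 CPM in 8-cell embryos (-5.75 ± 1.11, adjusted p = 0.00104; 0.111 against 020816_08 alone). DLK1, a Notch-related ligand, also fell (-6.88 ± 1.46, adjusted p = 0.00195), but its 8-cell values of 1.20, 48.9, 0.340 and 15.4 CPM overlapped the blastocysts, which reached 0.401 CPM. Both falling genes were lowest at the 8-cell stage in 020816_08, the embryo with few cumulus transcripts. DLK1 was also low, at 1.20 CPM, in cumulus-rich 020816_06. The part of cumulus cells in these 2 falls was not tested.

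Nuclear-encoded genes of the respiratory chain rose in 31 of 40 tested, with no fall and 9 not called (median 1.44). ATP5F1A (ENSMMUG00000003570), the alpha subunit of ATP synthase, stood at 1071, 1137 and 1214 CPM in blastocysts and at 181, 154, 203 and 191 CPM in 8-cell embryos (2.65 ± 0.15, adjusted p = 8.19e-09), a narrow spread at both stages. ATP5F1C and ATP5MC3, further subunits, rose by 2.59 and 2.30 on the log2 scale (adjusted p = 2.03e-06 and 2.69e-06). With library totals in place of TMM 28 of the 40 rose, all of them among those 31.

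Cytosolic ribosomal protein genes rose in 22, fell in 2 and were not called in 30 of 54 (median 0.51). RPS3, RPL7 and RPL5 averaged 422 ± 40.1, 217 ± 27.9 and 527 ± 45.8 CPM in blastocysts, against 155 ± 20.6, 88.5 ± 20.8 and 257 ± 19.8 CPM in 8-cell embryos (1.44 ± 0.16, 1.29 ± 0.22 and 1.04 ± 0.14; RPL5 at 0.67 with library totals). Among the members that fell was FAU (321 ± 80.9 CPM in blastocysts, 590 ± 126 CPM in 8-cell embryos, adjusted p = 0.00337; 0.416 against 020816_08 alone, at -0.36). With library totals 9 rose and 6 fell, so the count for this list rests on the scaling, and reads of ribosomal protein genes may be shared with their many pseudogene copies.

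Glucose and monocarboxylate transport and glycolysis genes rose in 11, fell in 4 and were not called in 6 of 21 (median 1.13). The glucose transporter SLC2A1, known as GLUT1, stood at 461, 649 and 885 CPM in blastocysts and at 34.5, 30.0, 23.8 and 49.2 CPM in 8-cell embryos (4.29 ± 0.99, adjusted p = 0.00606; 0.17 against 020816_08 alone). PFKL, the liver phosphofructokinase, averaged 132 ± 24.1 CPM in blastocysts and 6.72 ± 4.42 CPM in 8-cell embryos (4.30 ± 0.44, adjusted p = 2.69e-06), and GAPDH and the hexokinase HK2 rose by 1.95 and 1.39 on the log2 scale (adjusted p = 2.94e-06 and 3.23e-05). The pyruvate and lactate transporter SLC16A1 fell, with 185, 226 and 264 CPM in blastocysts and 869, 871, 1262 and 1208 CPM in 8-cell embryos (-2.22 ± 0.19, adjusted p = 6.32e-07). Its relative SLC16A7 (0.116 ± 0.115 and 3.90 ± 3.81 CPM, adjusted p = 0.0202) and the enolase ENO2 (0.254 ± 0.347 and 32.9 ± 12.4 CPM, -6.94 ± 0.99, adjusted p = 5.49e-05) fell as well. SLC2A3, a second glucose transporter, averaged 1139 ± 55.1 CPM in blastocysts and 1562 ± 251 CPM in 8-cell embryos. It was called lower (-0.46 ± 0.15, adjusted p = 0.0266), but not without 8-cell embryo 020816_08 (adjusted p = 0.0944), 8-cell embryo 112815_02 (0.0563), blastocyst 111215-a (0.0555) or blastocyst 111715_01 (0.051), and its log2 fold change was -0.82 with library totals and -0.70 against 020816_08 alone. SLC16A7 was not called in limma voom when the title code entered as a block (0.0738), and 7 members of the list rose against 020816_08 alone.

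Cholesterol synthesis genes rose in 6, fell in 1 and were not called in 8 of 15 (median 1.38). HMGCS1, which makes the precursor of mevalonate, averaged 519 ± 162 CPM in blastocysts and 45.9 ± 18.3 CPM in 8-cell embryos (3.50 ± 0.57, adjusted p = 0.000543). FDPS, a later enzyme, averaged 51.6 ± 16.6 CPM in blastocysts and 7.27 ± 5.21 CPM in 8-cell embryos (2.83 ± 0.48, adjusted p = 0.000287). HSD17B7 was called lower (adjusted p = 0.0459) but lost the call on leaving out any of 8 of the 10 libraries, with adjusted p up to 0.156. Against 020816_08 alone, HMGCS1 had an adjusted p of 0.0624.

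Cell cycle and replication genes had 5 rises, 12 falls and 18 not called among 35 (median -0.35). AURKA, a mitotic kinase, stood at 85.8, 108 and 124 CPM in blastocysts and at 219, 441, 435 and 215 CPM in 8-cell embryos (-1.63 ± 0.24, adjusted p = 7.76e-05). The phosphatase CDC25B averaged 20.6 ± 8.22 CPM in blastocysts and 98.4 ± 13.6 CPM in 8-cell embryos (-2.26 ± 0.30, adjusted p = 3.25e-05), and PCNA, the sliding clamp of replication, 255 ± 42.1 and 490 ± 125 CPM (-0.94 ± 0.19, adjusted p = 0.0011). The helicase subunits MCM4 and MCM3 and the checkpoint kinase BUB1 rose by 1.17, 0.89 and 1.06 on the log2 scale (adjusted p between 0.000289 and 0.00169). With library totals 4 rose and 18 fell, BUB1 and MCM3 standing at 0.70 and 0.51, and against 020816_08 alone 3 rose and 7 fell.

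Among called genes with a symbol, at least 20 CPM at one stage and no overlap, the 10 largest rises by log2 fold change were LEP, HSPB8, ATP12A, CLDN4, TSPAN15, N4BP3, CDHR1, PLAC8, FLNC and ZFP57. LEP (ENSMMUG00000005322), leptin, the fat hormone that the primate placenta also makes, stood at 14.0, 23.4 and 41.6 CPM in blastocysts and had no count in any 8-cell embryo, at least 299-fold higher over the group. The small heat shock protein gene HSPB8 had 3573 counts in blastocysts and 3 in 8-cell embryos (ratio 982, counting interval 336 to 4763). TSPAN15, a tetraspanin, and PLAC8, a placenta-enriched gene, averaged 90.8 ± 32.3 and 114 ± 23.7 CPM in blastocysts, against 0.119 ± 0.111 and 0.230 ± 0.122 CPM in 8-cell embryos. FLNC, an actin-linking filamin, averaged 122 ± 74.3 and 0.252 ± 0.185 CPM. N4BP3 had 2507 counts in blastocysts and 3 in 8-cell embryos (ratio 689, counting interval 236 to 3343), and CDHR1, a cadherin of photoreceptors, had 1065 counts and 1 count (ratio 878, counting interval 157 to 34710). CDHR1 stood at 2.00, 15.7 and 68.5 CPM in blastocysts, and without 111215-b, the highest, the ratio was 569. Against 020816_08 alone, LEP, HSPB8, TSPAN15, CDHR1, PLAC8 and FLNC kept their direction and lost their call (adjusted p 0.113 to 0.187).

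The 10 largest falls were UNCX, NOS1, GPX5, CRHBP, DSE, TPRX1, TEX15, COL6A3, IRF4 and DHRS7. TEX15 (ENSMMUG00000020821), a germ cell gene that silences transposons in the mouse testis, stood at 0.350, 0.740 and 1.40 CPM in blastocysts and at 238, 133, 232 and 168 CPM in 8-cell embryos (-7.94 ± 0.45, adjusted p = 8.19e-09). UNCX, a homeobox gene, had 1 count in blastocysts and 1363 in 8-cell embryos (ratio 0.000605, counting interval 1.53e-05 to 0.00338). The neuronal nitric oxide synthase NOS1 had 2 and 872 counts (ratio 0.00189, interval 0.000229 to 0.00685), the glutathione peroxidase GPX5 3 and 1030 (0.0024, 0.000494 to 0.00704) and DSE, an epimerase of dermatan sulphate, 3 and 823 (0.003, 0.000618 to 0.00881). DSE stood at 6.97, 20.3, 8.60 and 62.7 CPM in 8-cell embryos, and without 112815_02 the ratio was 0.00554. IRF4, known from lymphocytes, averaged 0.159 ± 0.249 CPM in blastocysts and 39.4 ± 10.3 CPM in 8-cell embryos (-7.81 ± 0.94, adjusted p = 1.21e-05). The cumulus sums given above were high in 3 of the 8-cell embryos, and 3 of these falls are set beside them. CRHBP, which binds corticotropin-releasing hormone, stood at 222, 341, 23.1 and 293 CPM in 8-cell embryos, lowest in 020816_08, where cumulus markers were low, and at most at 1.40 CPM in blastocysts (-8.42 ± 0.84, adjusted p = 1.08e-05; -5.20 against 020816_08 alone, adjusted p = 0.00675). COL6A3, a collagen chain, stood at 27.2, 123, 22.4 and 169 CPM in 8-cell embryos and at most at 0.844 CPM in blastocysts, so cumulus-rich 020816_06 was close to 020816_08. DHRS7, a dehydrogenase, stood at 33.0, 10.3, 2.15 and 62.1 CPM in 8-cell embryos, low in the most cumulus-rich of them, 020816_07. It was at 8.25 and 29.9 CPM in morulas 021016_02 and 021016_03, whose cumulus sums were 10.4 and 19.5 CPM. It was without a call against 020816_08 alone (-3.96, adjusted p = 0.0778). The part of cumulus cells in these 3 falls was not tested beyond those values.

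Blastocysts differed among themselves most, by the SD of log2(CPM + 1), in RPS4Y1, RPS4Y2, USP9Y, DDX3Y, KDM5D and NID1, of which the 5 leading names are Y-linked in primates. None of the 6 was called between the stages in SoLo, though other settings called DDX3Y and NID1. In the SPIA embryos with no SoLo library, edgeR called RPS4Y1 (9.95, adjusted p = 0.00975), RPS4Y2 (9.68, 0.00544) and DDX3Y (5.77, 0.0347) higher in blastocysts. USP9Y (1.02, 0.724) and NID1 (3.04, 0.18) were not called there. RPS4Y1 stood at 169, 169, 0.312, 204, 0.233 and 160 CPM in blastocysts 111215-a, 111215-b, 111715_01, 111715_02, 111715_04 and 112415_03, against 34.6, 43.1, 15.5 and 26.5 CPM in 8-cell embryos (adjusted p = 0.361). USP9Y, KDM5D and RPS4Y2 were likewise at most at 0.233 CPM in 111715_01 and 111715_04 and at least at 24.8 CPM in the other 4 blastocysts, while DDX3Y was at 1.09 and 3.03 CPM in those embryos and between 156 and 272 CPM in the others. No 8-cell embryo was near 0 for DDX3Y, which stood there at 301, 264, 568 and 261 CPM. With limma voom DDX3Y was called lower (-2.89, adjusted p = 0.0324), and the log2 fold changes of RPS4Y1, RPS4Y2 and KDM5D changed sign between edgeR (1.97, 0.90 and 1.57) and limma voom (-0.48, -1.75 and -0.87). NID1, a basement membrane protein, had another pattern, with 300, 8.16, 127, 292, 157 and 2.69 CPM in the blastocysts in that order and 14.5, 9.58, 0.226 and 12.2 CPM in 8-cell embryos (4.02 ± 1.72, adjusted p = 0.0868; 0.0178 with DESeq2 and 0.0388 without the morulas in the fit). It was low in 111215-b and 112415_03, the embryos in which ABCG2 was also lowest. The Y-linked genes have close X-linked relatives with which they may share counts.

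**Figure D5:**
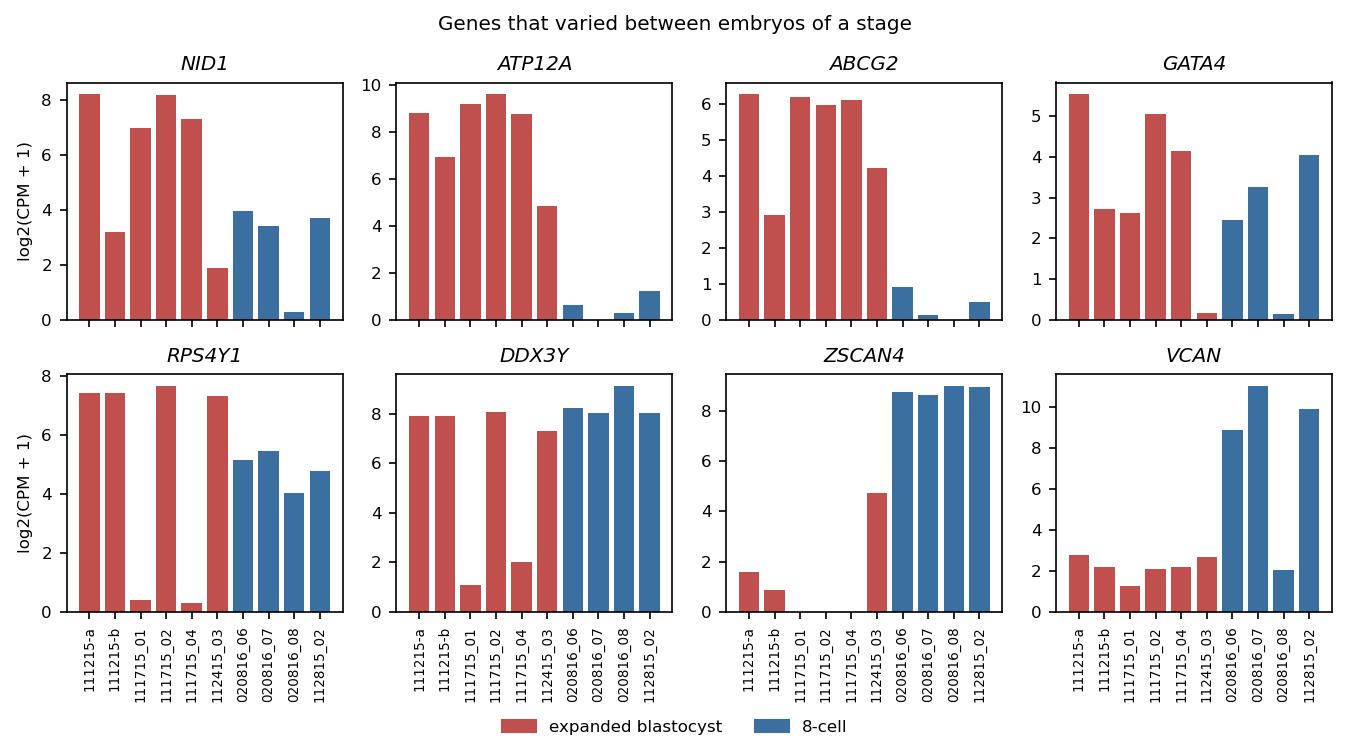
Level of 8 genes in each embryo (vertical axes, log2(CPM + 1); horizontal axes, library) for 6 blastocysts (red) and 4 8-cell embryos (blue). RPS4Y1 and DDX3Y are low in blastocysts 111715_01 and 111715_04, NID1 and ABCG2 in 111215-b and 112415_03, ZSCAN4 is highest among blastocysts in 112415_03, and VCAN is low in 8-cell embryo 020816_08.

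The mean of the 3 morulas lay between the stage means for 96 of the 116 called genes named here, but the morulas were unlike each other. Morula 022916_01 had KRT18 at 785 CPM, LRP2 at 3224 CPM, ABCG2 at 37.9 CPM and GATA2 at 222 CPM. In morulas 021016_02 and 021016_03 the same genes stood at 50.2 and 4.25 CPM, 56.9 and 12.6 CPM, 0.0917 and 0 CPM, and 0.367 and 0.586 CPM. These 4 markers were thus in or just above the 8-cell range in 2 morulas, and in or just below the blastocyst range in the third. PATJ and ESRRB stood at 141 and 83.3 CPM or more in every morula, above all 8-cell embryos.

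A check in other embryos was possible with SPIA, a kit that amplifies cDNA linearly, in 8 blastocysts and 5 8-cell embryos that have no SoLo library. Blastocyst 111715_05 of this set had 0.601 M counts, against 4.85 to 11.7 M in its other blastocysts and 8.76 to 17.4 M in its 8-cell embryos. The part of depth in the SPIA calls was not tested. Of 11491 genes tested there, 2231 (19.4%) were called, 657 (5.72%) higher and 1574 (13.7%) lower in blastocysts, with a median log2 fold change of -0.57 over all genes. Among 11311 genes tested in both sets, 1469 were called with the same sign, which is 30.9% of the 4761 SoLo calls and 67.2% of the 2186 SPIA calls, and 24 with opposite signs. Higher calls shared numbered 421 (17.96% of 2344 SoLo and 65.0% of 648 SPIA calls) and lower calls 1048 (43.4% of 2417 and 68.1% of 1538). Some title codes occur in both sets of embryos.

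Among marker genes in the SPIA embryos, KRT18 was at 8.59 (adjusted p = 4.8e-05), LRP2 at 10.74 (0.00026), AMOTL2 at 8.81 (5.1e-05), ABCG2 at 6.07 (0.021) and GATA2 at 6.13 (0.034) on the log2 scale. DNMT3L, at 1.73, was not called (0.27). All 8 genome activation genes tested there fell, LEUTX among them at -8.66 (0.0016), as did 20 of 34 maternal genes, and NLRP2 and NLRP7 rose by 2.14 and 2.41 (0.0023 and 0.0038). DNMT1 fell by 6.66 (0.00029) and UHRF1 by 5.42 (0.00032), while DNMT3B rose by 2.97 (0.0021) and ZFP57 was at -1.07 (0.66). Respiratory chain genes were called higher in 3 of 39, ribosomal protein genes in none of 54 with 2 lower, and Hippo genes in 1 of 18 with 2 lower, YAP1 (-2.08, 0.034) being one of these. Junction and polarity genes had 9 higher and 2 lower of 31, and glucose and glycolysis genes 1 higher and 1 lower of 20. Methylation and histone modifier genes had 4 higher and 12 lower of 51, and trophoblast genes 12 higher and 4 lower of 26. CDH1, CLDN4 and PKP3 were called higher there, while CGN (2.54, 0.14), PATJ (1.275, 0.42) and ESRRB (0.62, 0.70) were not called. FLNC, FRMD6 and ATP1B1, which rose in SoLo, had the opposite sign there and were not called (-0.59, -1.10 and -0.38, adjusted p 0.83, 0.32 and 0.75). The difference between the kits in these lists was not tested.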

How the data were processed

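RNA from single rhesus embryos was sequenced in SoLo and SPIA libraries, and the authors deposited a table of read counts per gene for the whole series, raw whole numbers. The submitters' processing notes name HISAT2 and DESeq2; settings, gene counter, strand setting and genome build: not given in the sources used here. Columns were matched to samples by title: 49 of 52 value columns matched, 3 matched no sample and were left out, and 3 samples have no column, a SoLo morula among them. Of 26309 gene identifiers 15078 have a symbol, and 16 symbols held by more than 1 identifier stayed out of the lists.

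Blastocysts, morulas and 8-cell embryos of the SoLo kit were fitted together in edgeR 4.0.16 (R 4.3.3; filterByExpr, TMM, robust quasi-likelihood test), with Benjamini-Hochberg adjustment over all genes. SE is the log2 fold change divided by the square root of F. DESeq2 1.42.0 and limma 3.58.1 served as alternatives. Exact permutation tests went through all arrangements with numpy 2.4.6, counting intervals used scipy 1.17.1, and figures matplotlib 3.10.9. The fit was tested on simulated data. Intervals and floors cover counting error only, and reads without molecular identifiers are not independent molecules.

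The members and lists were chosen with earlier results of these data known. Named genes were the 10 largest rises and falls among called genes with a symbol, a mean of at least 20 CPM and no overlap, up to 3 called members per list and direction by adjusted p, the 3 markers, a fixed panel, and the 6 symbols with the largest SD among blastocysts. Of the panel, 7 genes have no identifier. A few genes that the rule names are not reported here.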

Additional observations from a re-analysis of the deposited data

Results flagged for a closer look

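Dixon's test was run on 254 groups of 4 or 6 libraries, with genes on log2(CPM + 1). The groups were the named genes and 3 library measures at each stage where values varied. In 25 of them, or 9.84%, a library lay apart from the rest. Chance gives about 1 in 20 for normally distributed values. For KRT7, HSPB8, N4BP3 and CDHR1 in 8-cell embryos and UNCX, PRM2 and TNP1 in blastocysts, every other library was at 0. There the library with counts is always flagged, so the share cannot be compared with that rate. The groups share libraries, so the flags are not independent. Of these, 11 were in blastocysts and 14 in 8-cell embryos.

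Blastocyst 112415_03 stood apart in 7 genes. It was high in 3 genome activation genes, ZSCAN4 (25.47 CPM), LEUTX (35.58 CPM) and TPRX1 (9.343 CPM), and in the maternal gene NLRP5 (13.18 CPM). It was low in FDPS (23.04 CPM), and stood at 0.128 CPM in UNCX and 0.6399 CPM in IRF4, the highest of its stage in both. Blastocyst 111215-b stood apart in SCNN1G (1.407 CPM) and TNP1 (0.7034 CPM), 111715_01 in SUSD2 (46.35 CPM) and 111715_02 in PRM2 (0.5658 CPM).

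The 8-cell embryo 112815_02 stood apart in 10 genes. It was the highest of its stage in LRP2 (53.58 CPM), GATA6 (191.1 CPM), PDGFRA (177.9 CPM), NLRP7 (652.9 CPM), ATP6V1B1 (4.81 CPM), CLDN4 (0.2672 CPM), HSPB8 (0.4009 CPM) and N4BP3 (0.4009 CPM), all genes that rose in blastocysts. The last 3 of these lay at the floor, with 5, 3 and 3 counts over all 8-cell embryos. Embryo 112815_02 was the lowest in SCNN1G (0.4009 CPM) and CGA (0 CPM), genes that fell. The 8-cell embryo 020816_08 stood apart in KRT7 and CDHR1 (0.1132 CPM in each), as the library with the single count, and was low in CRHBP (23.09 CPM) and NID1 (0.2264 CPM).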

How the results depend on the processing

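Of 116 called named genes, 76 were called under every alternative run that tested them, and 40 lost the call somewhere. The runs numbered at most 20 per gene, and fewer where a gene was filtered out or had no adjusted p. Among the 76, AREG and DLK1 had 14 runs, CGA and SPACA1 15 and PRM2 16. Most of the 40 lost the call without the 3 cumulus-rich 8-cell embryos, VCAN and INHA with a change of sign. That fit leaves a single 8-cell library, assumed to vary like the other groups. Gene counts were 5457 at first, 6195 with DESeq2, 6515 with limma voom, 5951 with the title code as block in voom (chosen after seeing the data), 4824 with a stricter filter, 4199 without the 3 embryos, and 4660 to 5426 leaving out 1 library. TFAP2C, not called, was at -0.001608 with DESeq2, -0.001569 with its size factors, -0.2967 with library totals and -0.02577 with the stricter filter. Without the 3 embryos VCAN was at 0.3204 and INHA at 5.972, a fitted value over a library with no INHA count and no bound. With limma voom, and with the code block, RPS4Y1 was at -0.4794 and -0.342, RPS4Y2 at -1.749 and -1.62, and KDM5D at -0.8733 and -0.751. Higher calls in SPIA numbered 1385 in embryos shared with SoLo and 1131 without a filter, against 657. The difference in identifiers detected was 360.3 to 1043 on leaving out 1 library, 1043 being the value without 020816_06 (exact permutation p = 0.0238). Ratios of pooled counts without 1 library were also chosen after seeing the data. The causes were not tested. No paired analysis was possible because no title number occurs in both compared SoLo groups.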
